A study of Mus musculus with 6 samples.

Results

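The 9 genes described here move lipid out of the cell (Abca1, Abca7, Abcg1), store or release it (Soat1, Plin2, Pnpla2), or activate, rebuild and synthesise phospholipid (Acsl4, Lpcat2, Selenoi). They were taken by symbol from a table of 11881 genes measured in microglia, the resident macrophages of the brain. All 9 were listed, and all 9 were among the 10832 genes left by a filter on low counts. They were chosen by their CPM (counts scaled to library size) under both genotype labels. The difference between genotypes is therefore described for them with no p-value. No significance is read from the standard errors (SE) of their fold changes.

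Microglia take up lipid-rich debris, including cholesterol from myelin and dying cells. Free cholesterol can leave through ATP-binding cassette transporters, which load it onto apolipoprotein particles and whose genes are induced by the liver X receptors (LXRs), or it can be esterified and kept in lipid droplets, from which lipases release fatty acids. Fatty acids activated to acyl-CoA are also exchanged on phospholipids, a cycle that sets how much arachidonic acid membranes hold and supplies lipid mediators.

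RNA-seq was made from microglia sorted as CD11b+ CD45low cells from the hippocampus of male mice aged 17 to 21 days. There were 3 libraries labelled Mll5+/- and 3 labelled WT, and the labels number the animals separately. Mll5+/- mice have 1 intact copy of Mll5, a gene of the MLL family now called Kmt2e, while WT mice have both. The sources used here do not give how the allele was made, the strain, or whether mice shared a litter. P-values here set the difference between labels against the spread between these libraries. They treat the libraries as independent, which could not be checked.

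Kmt2e itself had 648, 298 and 513 CPM under the Mll5+/- label, against 480, 378 and 688 CPM under the WT label. The fold change of Kmt2e on the log2 scale was -0.08 (SE 0.314; edgeR, unadjusted p = 0.799). Counts over the whole gene thus did not reveal a missing copy, and genotype is stated only as labelled. Totals ran from 21075570 to 29730400 counts per library, at which 3 counts are worth between 0.101 and 0.142 CPM. Summed levels of 15 microglial markers, all 15 listed, were 9933 to 10990.0 CPM under the Mll5+/- label and 12113 to 16368 CPM under the WT label, with no overlap. Without P2ry12 the sums were 8846 to 9758 CPM under Mll5+/- and 10169 to 10869 CPM under WT. Tmem119, which marks microglia among brain macrophages, had 226 ± 5.56 CPM under Mll5+/- and 207 ± 12.1 CPM under WT (SD, n = 3 each). Cx3cr1, a chemokine receptor, had 1342 ± 129 CPM under Mll5+/- and 1511 ± 209 CPM under WT, and Csf1r, a receptor microglia need to survive, had 925 ± 66.5 CPM under Mll5+/- and 935 ± 131 CPM under WT. Of the 15, P2ry12, a purinergic receptor, had 1115, 1232 and 1087 CPM under Mll5+/- and 4269, 1366 and 5499 CPM under WT, lower without overlap. Gpr34, a lysophosphatidylserine receptor, was also lower without overlap, with 897, 793 and 585 CPM under Mll5+/- and 1083, 1241 and 1267 CPM under WT. Tmem119 was higher without overlap, and the levels of the others overlapped. Among all tested genes, 9.32% did not overlap between labels in either direction. Among the other marker lists, summed border-associated macrophage markers (6 of 9 listed, all but Pf4, Cbr2 and Clec4n) were 369 to 692 CPM under the Mll5+/- label and 265 to 328 CPM under the WT label. Of these, Stab1 had 331, 162 and 489 CPM under Mll5+/- and 218, 245 and 139 CPM under WT, and Mrc1 had 80.5, 179 and 190 CPM under Mll5+/- and 93.3, 81.4 and 109 CPM under WT. Oligodendrocyte lineage markers (6 of 13 listed) summed to 98.2 to 135 CPM under Mll5+/- and 140.3 to 185 CPM under WT, also without overlap. The other sums overlapped. Astrocyte markers (8 of 13 listed) summed to 268 to 555 CPM under Mll5+/- and 397 to 570.2 CPM under WT, and neuron markers (6 of 13) to 182 to 217 CPM under Mll5+/- and 183 to 245 CPM under WT. Among the astrocyte markers, Gja1 had 3.51, 6.71 and 1.75 CPM under Mll5+/- and 22.7, 23.2 and 28.6 CPM under WT. Plpp3 had 3.39, 4.39 and 5.62 CPM under Mll5+/- and 15.5, 11.5 and 23.0 CPM under WT. Both were lower without overlap, while the other astrocyte markers overlapped. Slc1a3, the most abundant of them, had 240, 461 and 270 CPM under Mll5+/- and 387, 292 and 493 CPM under WT. Monocyte and neutrophil markers (6 of 10) summed to 226 to 278 CPM under Mll5+/- and 196 to 257 CPM under WT, and endothelial and mural markers (5 of 10) to 16.96 to 23.3 CPM under Mll5+/- and 14.3 to 30.9 CPM under WT. Whether these marker levels had a part in the results on the lipid genes was not tested. In such bulk samples, fewer cells of a type and less RNA per cell cannot be told apart.

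Of the 9 genes, 2 had levels that did not overlap between the genotype labels, Pnpla2 and Selenoi, and both were higher in all 3 libraries labelled Mll5+/-, while 0 were lower. Among all tested genes, 4.68% were higher without overlap, 4.64% were lower without overlap and 9.32% did not overlap in either direction; nothing is read from the share, since these levels chose the genes. Mean levels were 2.56 times and 2.03 times as high in the libraries labelled Mll5+/- for Pnpla2 and Selenoi. The other 7 genes overlapped. Across all tested genes, 0 passed an adjusted p of 0.05 in edgeR (0%), with 312 (2.88%) under an unadjusted p of 0.05, and DESeq2 called 29 (0.244%) of all listed genes.

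**Figure D1:**
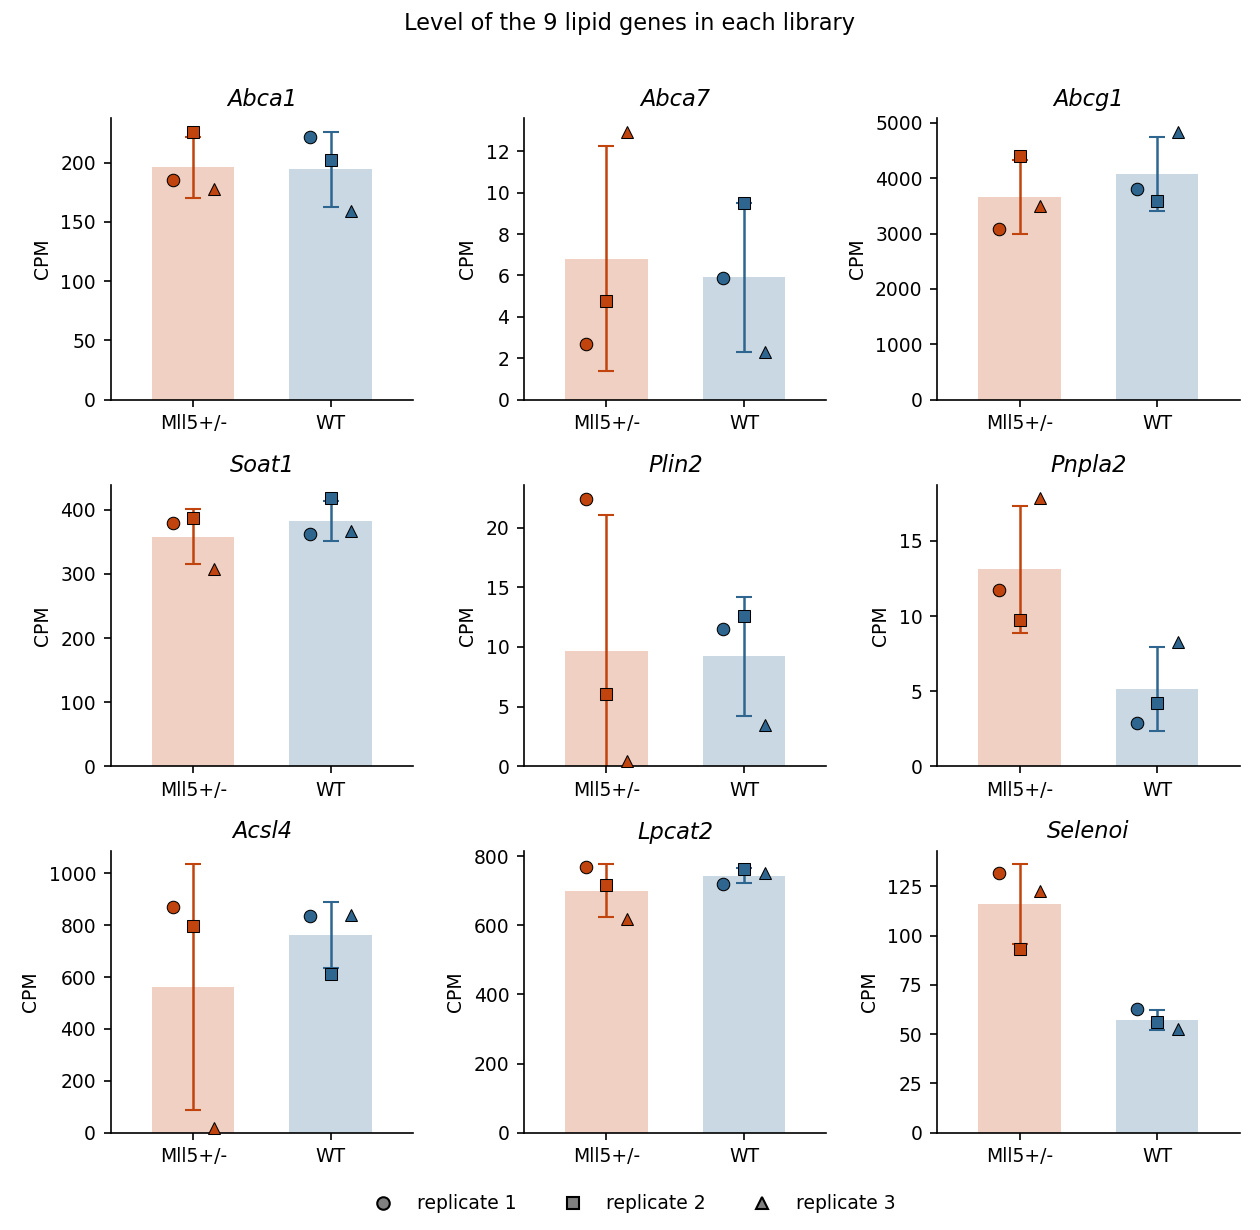
Level of each gene in CPM (y axis, from 0, a separate scale per gene) in libraries labelled Mll5+/- (left) and WT (right); bars are means, error bars SD (n = 3 each, cut at 0 for Plin2) and symbols the replicates. Pnpla2 and Selenoi are higher in all 3 libraries labelled Mll5+/-, and Acsl4 and Plin2 are near 0 in Mll5+/- replicate 3.

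Among the transporters, Abca1 moves cholesterol and phospholipid onto lipid-poor apolipoproteins. It lies on chromosome 4 from 53030787 to 53159895 (mm39). Abca1 had 185, 225 and 178 CPM under the Mll5+/- label, against 222, 202 and 159.5 CPM under the WT label. The ranges overlapped, and the log2 fold change was 0.01 (SE 0.217). Its sign turned without Mll5+/- replicate 2 (-0.11) and without WT replicate 3 (-0.11).

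The promoter of Abca1 is shown because the gene is a textbook LXR target. It was read from RefSeq's GRCm38.p6 (250 bases before to 50 after the annotated start, chr4:53159846-53160145, minus strand), a build other than that of the count table. Capitals mark the motifs searched on both strands, which were CACGTG (E-box), GGTNA repeated after 5 bases of any kind (a relaxed direct repeat of the kind LXRs bind), GGGCGG (GC box), CCAAT and TATAAA.
Abca1: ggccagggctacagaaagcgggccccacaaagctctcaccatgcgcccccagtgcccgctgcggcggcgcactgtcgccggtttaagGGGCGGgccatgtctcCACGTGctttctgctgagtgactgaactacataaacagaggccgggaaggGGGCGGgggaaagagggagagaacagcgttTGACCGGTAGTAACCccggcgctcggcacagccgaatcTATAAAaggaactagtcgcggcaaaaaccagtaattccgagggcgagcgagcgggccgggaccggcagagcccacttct
The repeat was found once, on the minus strand of this sequence, 67 bases before the start, written here as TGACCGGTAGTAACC. Of 32851 promoters of that length, 0.718% held such a repeat, and among the 8 genes of the set with a promoter in the table Abca1 was the single one. An E-box lay 147 bases before the start, where 7.15% of promoters held an E-box anywhere in the window. A match is a description of the letters and does not show binding.

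Abcg1, which passes cholesterol to particles that already hold lipid, was among the most abundant transcripts of the table. On chromosome 17 from 31276649 to 31336962, Abcg1 ranked 23 of all listed genes by mean CPM, and with exon length taken into account it stood above 99.5% of tested genes. It had 3083, 4400.0 and 3505 CPM under the Mll5+/- label, against 3806, 3581 and 4843 CPM under the WT label. The values overlapped, with the lowest in Mll5+/- replicate 1 and the highest in WT replicate 3, and the log2 fold change was -0.15 (SE 0.176). An annotated rRNA gene of 128 bases, Gm25447, lies in an intron of Abcg1 on the same strand, and the sources used here do not say how reads there were counted.

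Abca7, a relative of Abca1 that acts on phospholipid and in phagocytosis and carries Alzheimer's disease risk variants in people, was much scarcer. It lies on chromosome 10 from 79832328 to 79851406. Abca7 had 2.68, 4.78 and 12.9 CPM under the Mll5+/- label, against 5.90, 9.51 and 2.32 CPM under the WT label. The highest value was in Mll5+/- replicate 3 and the lowest in WT replicate 3, and libraries of the same label differed by 4.83 times under Mll5+/- and 4.09 times under WT. The log2 fold change of 0.20 (SE 0.934) turned to -0.67 without Mll5+/- replicate 3 and to -0.18 without WT replicate 3.

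The 9 genes spanned a wide range of levels per kilobase of exon. Abcg1 came first, at 502 ± 92.2 CPM per kb in the libraries labelled Mll5+/- and 559 ± 92.2 in those labelled WT (SD, n = 3 each). Lpcat2 followed at 207 ± 22.5 under Mll5+/- and 220 ± 6.37 CPM per kb under WT, and Acsl4 at 104 ± 87.5 under Mll5+/- and 141 ± 23.8 under WT. Under the Mll5+/- label the means of these last 2 differed by less than the sum of their SDs. Soat1 (36.6 ± 4.43 under Mll5+/- and 39.1 ± 3.18 CPM per kb under WT), Abca1 (18.9 ± 2.48 under Mll5+/- and 18.8 ± 3.07 under WT) and Selenoi (8.84 ± 1.53 under Mll5+/- and 4.36 ± 0.387 under WT) came next. These 3 stood apart from each other under both labels, but Acsl4 and Soat1 differed by more than their SDs only under WT. The lowest 3 were Pnpla2 (4.34 ± 1.40 under Mll5+/- and 1.69 ± 0.928 under WT), Plin2 (2.75 ± 3.25 under Mll5+/- and 2.62 ± 1.43 under WT) and Abca7 (1.01 ± 0.803 under Mll5+/- and 0.875 ± 0.532 under WT), whose neighbours did not differ beyond their spread, and under WT Plin2 stood above Pnpla2. These levels use exon lengths of GENCODE M21, which has a value for 10614 of the tested genes.

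**Figure D2:**
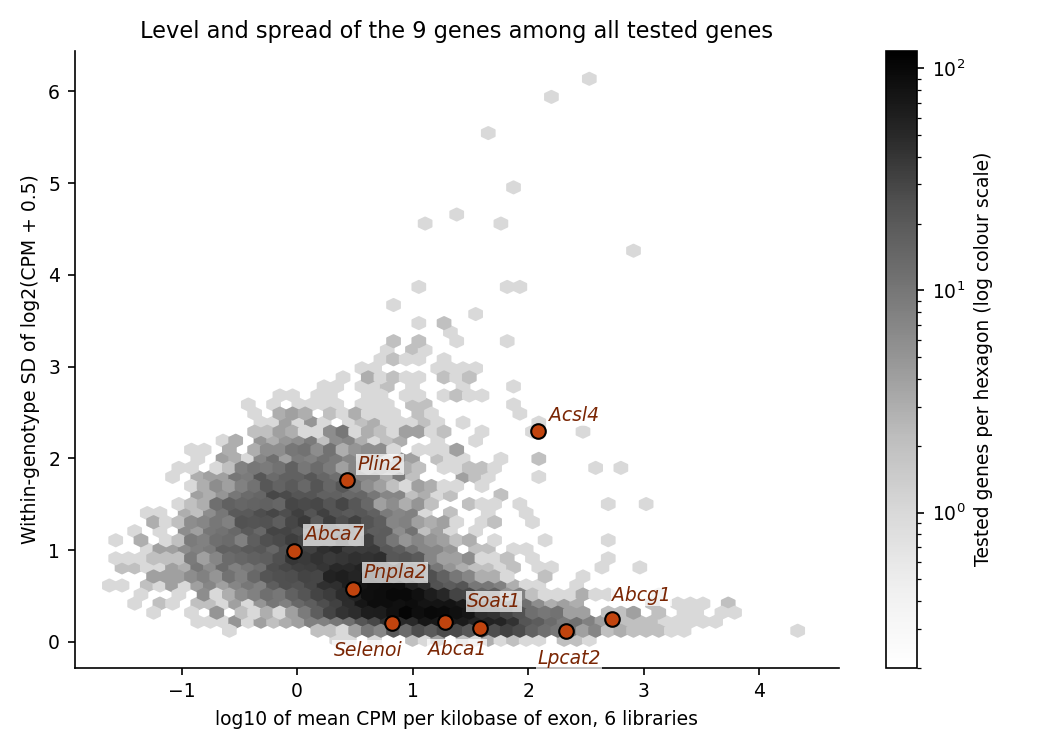
Mean CPM per kilobase of exon over the 6 libraries (x axis, log10) against the SD of log2(CPM + 0.5) within a genotype label (y axis) for all tested genes with a length (grey hexagons) and the 9 lipid genes (orange points). Abca1, Abcg1, Soat1, Lpcat2 and Selenoi have SDs under 0.25, while Acsl4 combines a high level with an SD of 2.30.

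The genes also fell apart by how much libraries of the same label varied. The SD of log2(CPM + 0.5) within a label was under 0.25 for 5 genes, Abca1, Abcg1, Soat1, Lpcat2 and Selenoi, where 9.78% of all tested genes had so small an SD. These 5 each stood above at least 61.9% of tested genes in level per kb. Their SDs were not set against genes of like level. The SD was over 1 for 2 genes, Plin2 at 1.76 and Acsl4 at 2.30, where 31.4% of tested genes had such an SD. The median over all tested genes was 0.68. At or above the level per kb of Acsl4 stood 226 tested genes, of which 11 had an SD over 1.

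Of the storage and lipolysis genes, Soat1 encodes the enzyme that esterifies cholesterol for storage. On chromosome 1 from 156252095 to 156301901, Soat1 had 379, 387 and 308 CPM under the Mll5+/- label, against 363, 419 and 367 CPM under the WT label. Its levels overlapped, with a log2 fold change of -0.10 (SE 0.178). Nceh1, which hydrolyses cholesteryl esters, varied more, with 5.25, 33.6 and 22.1 CPM under the Mll5+/- label and 9.78, 21.4 and 4.06 CPM under WT.

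Plin2, which coats lipid droplets, was scarce and the most scattered gene after Acsl4. It lies on chromosome 4 from 86574802 to 86588297. Plin2 had 22.4, 6.07 and 0.473 CPM (568, 173 and 10 counts) under the Mll5+/- label, against 11.5, 12.6 and 3.43 CPM (276, 328 and 99 counts) under the WT label. Mll5+/- replicate 1 held the highest and replicate 3 the lowest of the 6 values, a range of 47.4 times within the label. The log2 fold change of 0.07 (SE 1.13) was -1.49 without Mll5+/- replicate 1, 0.62 without Mll5+/- replicate 3 and -0.32 without WT replicate 3. Its paralog Plin3, a droplet protein that also travels in the cytosol, had 33.9, 47.7 and 49.95 CPM under Mll5+/- and 34.3, 29.2 and 49.3 CPM under WT.

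Pnpla2 encodes adipose triglyceride lipase, the enzyme that begins the breakdown of stored triglyceride. It lies on chromosome 7 from 141035111 to 141040656. Pnpla2 had 11.7, 9.73 and 17.9 CPM (297, 277 and 378 counts) under the Mll5+/- label, against 2.88, 4.19 and 8.26 CPM (69, 109 and 238 counts) under the WT label. The lowest library labelled Mll5+/- was 1.18 times the highest labelled WT. The means were 13.1 ± 4.24 CPM under Mll5+/- and 5.11 ± 2.80 CPM under WT (SD, n = 3 each). The log2 fold change was 1.36 (SE 0.694) and ran from 1.05 without Mll5+/- replicate 3 to 1.88 without WT replicate 3.

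Transcripts for the partners of this lipase were scarce. Abhd5, its co-activator, had 1.42, 12.04 and 0 CPM under the Mll5+/- label and 5.69, 3.73 and 1.08 CPM under the WT label. Hilpda, an inhibitor of the lipase, had 0, 3.37 and 0 CPM under Mll5+/- and 0.711, 3.31 and 5.48 CPM under WT. The next lipases of the chain were Lipe, at 13.1, 31.0 and 8.88 CPM under Mll5+/- and 14.7, 14.5 and 10.4 CPM under WT, and Mgll, at 99.8, 178 and 95.1 CPM under Mll5+/- and 220.0, 184 and 170 CPM under WT. Mgll, which also degrades the endocannabinoid 2-arachidonoylglycerol, thus had its 2 lowest values under the Mll5+/- label while overlapping with WT (log2 fold change -0.62, SE 0.290, edgeR unadjusted p = 0.0621, adjusted p = 0.9995).

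The promoters of Plin2 (chr4:86670010-86670309, minus strand) and Pnpla2 (chr7:141454938-141455237, plus strand), with motifs marked as above, are shown as those of a droplet coat and of the lipase that acts on droplets.
Plin2: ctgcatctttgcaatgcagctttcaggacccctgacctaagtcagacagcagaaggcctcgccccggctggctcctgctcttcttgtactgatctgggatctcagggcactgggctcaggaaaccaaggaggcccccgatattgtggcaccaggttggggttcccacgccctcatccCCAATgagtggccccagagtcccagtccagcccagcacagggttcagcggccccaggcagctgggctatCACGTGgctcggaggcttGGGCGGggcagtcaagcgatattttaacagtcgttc
Pnpla2: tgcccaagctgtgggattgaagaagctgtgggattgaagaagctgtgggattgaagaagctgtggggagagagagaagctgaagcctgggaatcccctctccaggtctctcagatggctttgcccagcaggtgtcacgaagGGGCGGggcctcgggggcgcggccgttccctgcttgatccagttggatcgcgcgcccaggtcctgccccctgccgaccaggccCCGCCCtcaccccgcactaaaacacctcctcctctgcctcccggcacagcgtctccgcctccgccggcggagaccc
Plin2 and Abca1 were the 2 genes of the set with an E-box, which in Plin2 began 4 bases before the annotated start. Pnpla2 held 2 GC boxes, 109 and 26 bases before the start, and no other motif searched. GC boxes were found in all 8 promoters at hand and in 35.7% of all promoters. The 8 promoters held 54.7% to 71.7% G and C and 10 to 33 CpG dinucleotides, where the medians of all promoters were 52.7% and 7. GC boxes were not counted among promoters of like composition, so nothing about the set is read from their share.

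In phospholipid metabolism, Acsl4 encodes the acyl-CoA synthetase that prefers arachidonic acid, and it is known for making membranes prone to ferroptosis. It lies on chromosome X from 141100989 to 141173531. Acsl4 had 871, 796 and 16.6 CPM (22075, 22685 and 352 counts) under the Mll5+/- label, against 834, 613 and 839 CPM under the WT label. Of the 6 libraries, 5 lay within 613 to 871 CPM, and Mll5+/- replicate 3 was 50.1 times below the median of the other 5. The log2 fold change of -0.44 (SE 1.28) became 0.12 without that library.

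**Figure D3:**
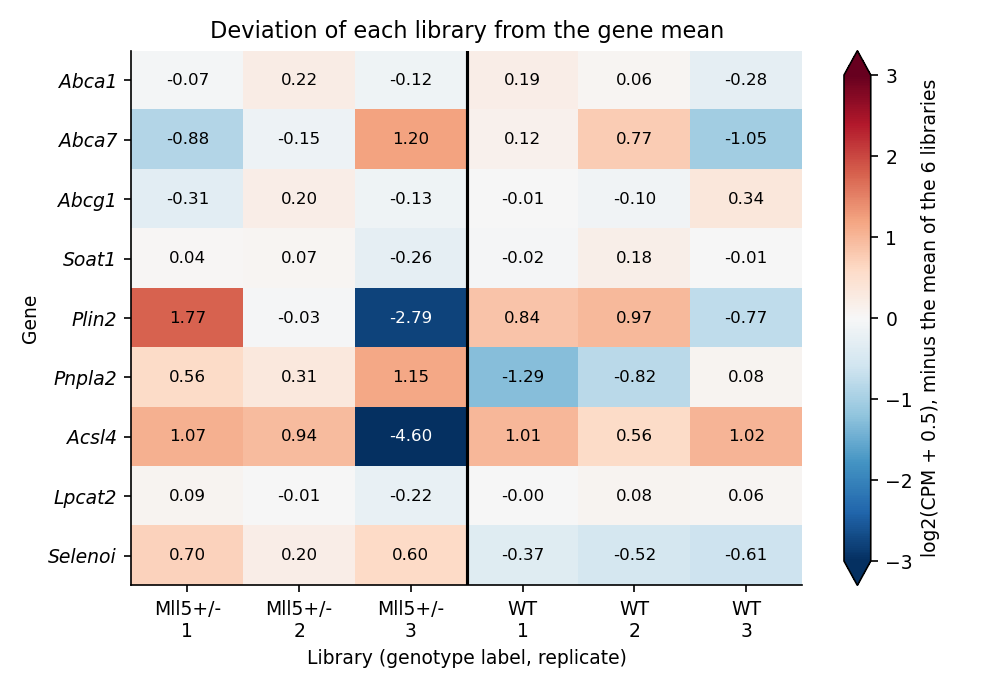
Each library's log2(CPM + 0.5) minus the gene's mean over the 6 libraries (colour and printed value), with libraries labelled Mll5+/- left of those labelled WT. Acsl4 (-4.60) and Plin2 (-2.79) are lowest in Mll5+/- replicate 3, while Selenoi is above its mean in all 3 libraries labelled Mll5+/- and below it in all 3 labelled WT.

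The median ratio of Mll5+/- replicate 3 to the other 5 libraries was 0.947 over 332 tested genes of the X chromosome. Of the neighbours in the table, Nxt2, on one side, was also lowest there, with 10.5, 22.4 and 0.992 CPM under Mll5+/- and 10.2, 7.004 and 4.75 CPM under WT, while Tmem164, on the other side, was highest there at 12.9 CPM. The long-chain synthetases Acsl1 and Acsl5 had 42.9 and 73.9 CPM in that library, within the range of the other 5. Acsl1 had 42.8 to 46.5 CPM over the libraries labelled Mll5+/- and 45.4 to 59.0 CPM over those labelled WT, and Acsl5 had 43.7 to 73.9 CPM under Mll5+/- and 51.9 to 85.9 CPM under WT. Acsl3 was at 18 counts there and at 0 in WT replicate 3. Among 2863 tested genes with a median of at least 50 CPM in the other 5 libraries, 42 (1.47%) were under 0.1 of that median in Mll5+/- replicate 3.

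That library was also the lowest of the 6 for Soat1, Plin2 and Lpcat2, and the highest for Abca7 and Pnpla2. It was thus lowest for 4 of the 9 genes and highest for 2, where over all tested genes it was lowest for 24.1% and highest for 22.6%. It had the lowest total count and the highest share of mitochondrially encoded counts (3.55%, against 1.88% to 2.90% in the other 5). What part depth or RNA quality had in its values was not tested.

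Lpcat2 encodes an acyltransferase that returns fatty acids to lysophosphatidylcholine and also makes platelet-activating factor in inflammatory cells. On chromosome 8 from 93581967 to 93645907, Lpcat2 had 768, 716 and 618 CPM under the Mll5+/- label, against 720.0, 762 and 750.2 CPM under the WT label. It was the steadiest of the 9, with an SD within a label of 0.12, and its log2 fold change was -0.09 (SE 0.155). Capns2, which lies inside Lpcat2, had 0.803 to 11.2 CPM under Mll5+/- and 7.36 to 17.7 CPM under WT. Lpcat1, the paralog of Lpcat2, had 1410, 1136 and 1582 CPM under the Mll5+/- label and 1035, 1084 and 1151 CPM under the WT label (log2 fold change 0.34, SE 0.164, edgeR unadjusted p = 0.0704, adjusted p = 0.9995).

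Selenoi encodes a selenoprotein that joins ethanolamine to diacylglycerol, the last step in making phosphatidylethanolamine by the CDP-ethanolamine route. It lies on chromosome 5 from 30437579 to 30477425. Selenoi had 132, 93.4 and 123 CPM (3347, 2661 and 2597 counts) under the Mll5+/- label, against 62.8, 56.2 and 52.7 CPM (1501, 1460 and 1520 counts) under the WT label. All 3 libraries labelled Mll5+/- stood above all 3 labelled WT, and the lowest library labelled Mll5+/- was 1.49 times the highest labelled WT. The means were 116 ± 20.1 CPM under Mll5+/- and 57.2 ± 5.09 CPM under WT (SD, n = 3 each). The log2 fold change of 1.02 (SE 0.258) ran from 0.90 to 1.14 as each library was left out in turn. Selenoi was chosen by these levels, so no significance is read from the SE.

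Its promoter (chr5:30232331-30232630, plus strand), shown as that of the gene with the widest gap between labels among the 9, held 4 GC boxes and a CCAAT box on the minus strand, the most GC boxes of the 8.
Selenoi: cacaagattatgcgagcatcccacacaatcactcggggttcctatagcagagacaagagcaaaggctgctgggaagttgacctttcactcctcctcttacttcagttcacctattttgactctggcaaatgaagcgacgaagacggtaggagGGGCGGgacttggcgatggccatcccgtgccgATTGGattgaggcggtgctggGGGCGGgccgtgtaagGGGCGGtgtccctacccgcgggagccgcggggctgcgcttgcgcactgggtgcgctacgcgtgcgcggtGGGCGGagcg

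The ethanolamine route has other enzymes. Etnk1, which phosphorylates ethanolamine, had 66.0, 63.6 and 34.8 CPM under the Mll5+/- label, against 56.4, 60.8 and 37.4 CPM under the WT label. Pcyt2, which makes CDP-ethanolamine, had 8.64, 6.43 and 7.51 CPM under Mll5+/- against 11.1, 11.7 and 14.3 CPM under WT. Cept1, which can carry out the same last step as Selenoi and also makes phosphatidylcholine, had 136, 74.8 and 141 CPM under Mll5+/- against 184, 147 and 145 CPM under WT. Pcyt2 and Cept1 were thus lower in all 3 libraries labelled Mll5+/-, without overlap, with log2 fold changes of -0.71 (SE 0.569) and -0.44 (SE 0.288). They were the 2 of 22 tested genes of phospholipid head-group synthesis without overlap (9.09%), beside 9.32% of all tested genes. Neither passed the test (edgeR adjusted p = 0.9995 for each), and their difference from the change of Selenoi was not tested.

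**Figure D4:**
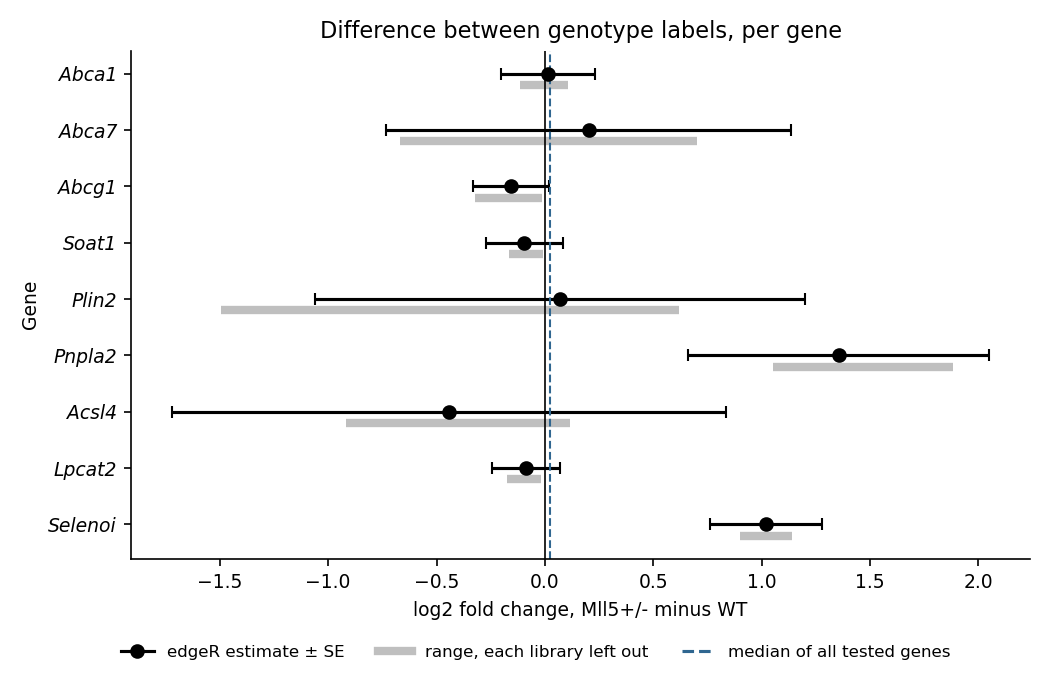
Log2 fold change, Mll5+/- minus WT (x axis), of the 9 genes with the SE of the edgeR estimate; grey bars span the estimates with each library left out, and the dashed line is the median of all tested genes (0.02). The estimates of Abca1, Abca7, Plin2 and Acsl4 change sign in some such fits. Those of Pnpla2 and Selenoi stay above 0, which their lack of overlap between labels all but fixes beforehand.

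The wider lipid pathways were described by 5 lists of other genes, 155 in all, of which 120 were tested. In edgeR 0 of the 120 passed an adjusted p of 0.05 over all tested genes, and DESeq2 and limma-voom called 0 of them as well. Under an unadjusted p of 0.05 in edgeR stood 2 of the 120, beside 2.88% of all tested genes. Both were lower in the libraries labelled Mll5+/- and 0 were higher. Over all tested genes 1.52% were lower and 1.36% higher at that level. DESeq2, run without the filter, had 4 of the 125 genes of the lists in the table at that level, beside 565 of all 11881 genes. In limma-voom these were 4 of the 120, beside 467 of the 10832 tested genes. Without overlap between the labels were 10 of the 120 (8.33%), 3 higher and 7 lower, beside 9.32% of all tested genes. Log2 fold changes were positive for 54 of the 120 (45%), beside 51.8% of all tested genes.

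In the list of sterol efflux and LXR targets, 23 genes were tested, 0 were called, 7 (30.4%) had positive log2 fold changes and the median was -0.12. Nr1h2, which encodes LXR-beta, had 1.03, 12.2 and 12.6 CPM under the Mll5+/- label and 3.01, 7.93 and 15.9 CPM under WT, with a fold change that turned sign without Mll5+/- replicate 1 and without WT replicate 3. Nr1h3, which encodes LXR-alpha, was not among the listed genes under that symbol. Apoe, the main lipid carrier of the brain and an LXR target, had 401 ± 89.2 CPM under Mll5+/- and 375 ± 49.7 CPM under WT (SD, n = 3 each). Mylip, an LXR-induced ligase that degrades the LDL receptor, had 818 ± 107 under Mll5+/- and 947 ± 67.7 CPM under WT, and Abca9, a transporter of the same family as Abca1, had 466 ± 67.3 under Mll5+/- and 506 ± 41.7 CPM under WT. Scd2 and Srebf1 were among the genes of smallest p in the list, with Scd2, a fatty acid desaturase, at 47.5, 46.7 and 158 CPM under Mll5+/- against 42.4, 59.0 and 15.96 CPM under WT, and Srebf1, a regulator of fatty acid synthesis, at 0.473, 12.99 and 0.236 CPM under Mll5+/- against 0.878, 0.308 and 0 CPM under WT. Srebf1 rested on Mll5+/- replicate 2, without which its log2 fold change of 3.52 was -0.16. The unadjusted p-values of Scd2 and Srebf1 were 0.106 and 0.145 (edgeR).

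The neutral lipid storage and lipolysis list had 21 tested genes, 0 called, 13 (61.9%) positive log2 fold changes and a median of 0.10. Besides Mgll, the named genes were Abhd6, which also hydrolyses monoacylglycerol, at 109 ± 33.3 CPM under Mll5+/- and 149 ± 9.05 CPM under WT, Ubxn8 at 21.6 ± 11.6 under Mll5+/- and 36.6 ± 6.11 CPM under WT, Abhd12, a lysophosphatidylserine lipase, at 191 ± 35.04 under Mll5+/- and 179 ± 21.0 CPM under WT, and Ddhd2, a triglyceride lipase of the brain, at 917 ± 262 under Mll5+/- and 752 ± 175 CPM under WT (SD, n = 3 each).

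Among 28 tested genes of acyl-CoA activation and phospholipid remodelling, 0 were called, 14 (50%) had positive log2 fold changes and the median was 0.01. The 2 genes under an unadjusted p of 0.05 were both acyltransferases of the AGPAT family. Agpat5 had 9.39, 20.2 and 2.60 CPM under the Mll5+/- label, against 42.2, 71.4 and 48.0 CPM under the WT label (log2 fold change -2.32, SE 0.677, edgeR unadjusted p = 0.00770, adjusted p = 0.9995). Agpat1, which acylates lysophosphatidic acid, had 1.34, 1.26 and 0.567 CPM under Mll5+/- against 3.18, 5.23 and 119 CPM under WT (log2 fold change -5.31, SE 1.54, edgeR unadjusted p = 0.0107, adjusted p = 0.9995). The size of the Agpat1 value rested on WT replicate 3, without which the log2 fold change was -1.99. Ptgs1, which makes prostaglandins from arachidonic acid, had 678 ± 97.2 CPM under Mll5+/- and 660 ± 55.8 CPM under WT (SD, n = 3 each).

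Of 22 tested genes of phospholipid head-group synthesis, 0 were called, 10 (45.5%) had positive log2 fold changes and the median was -0.08. Besides Cept1 and Pcyt2, Cds2, which makes CDP-diacylglycerol, had 22.6, 12.2 and 2.55 CPM under Mll5+/- and 3.85, 6.39 and 4.89 CPM under WT. Lpin2, a phosphatidate phosphatase, had 718 ± 127 CPM under Mll5+/- and 538 ± 279 CPM under WT (SD, n = 3 each).

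Fatty acid uptake and oxidation counted 26 tested genes, 0 called, 10 (38.5%) positive log2 fold changes and a median of -0.24, beside 0.02 for all tested genes. Cd36, a scavenger receptor that takes up fatty acids, had 1.97, 5.93 and 5.25 CPM under Mll5+/- and 0, 0.654 and 0.451 CPM under WT. Acat1, a mitochondrial thiolase, was at 23.6, 27.7 and 9.50 CPM under Mll5+/- against 39.6, 54.3 and 33.8 CPM under WT, and Etfdh, which passes electrons from fatty acid oxidation to the respiratory chain, at 23.0, 35.1 and 41.0 CPM under Mll5+/- against 24.9, 16.9 and 10.1 CPM under WT. Their unadjusted p-values ran from 0.0512 to 0.0816 (edgeR). Lpl, lipoprotein lipase, had 95.2, 97.96 and 250 CPM under Mll5+/- and 156, 125 and 129 CPM under WT, and its log2 fold change of 0.11 was -0.51 without Mll5+/- replicate 3.

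**Figure D5:**
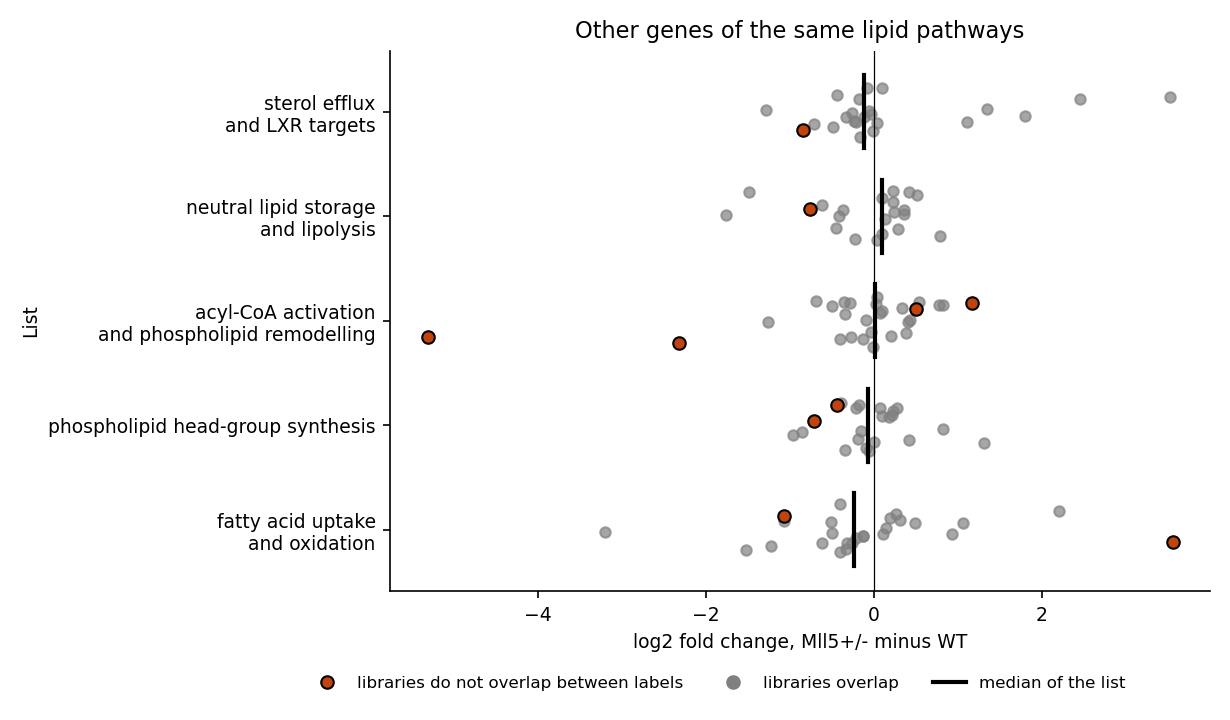
Log2 fold change, Mll5+/- minus WT (x axis), of each tested gene of the 5 lists (rows; vertical scatter within a row has no meaning); orange points are the 10 genes without overlap between labels, grey points the rest and black ticks the medians. The medians lie between -0.24 and 0.10, and the lowest orange point is Agpat1 at -5.31.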

How the data were processed

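Raw counts, whole numbers for each gene symbol, were deposited by the authors in a table that covers all 6 libraries and gives coordinates. TRIzol extraction, SMART-seq amplification and a TruePrep library kit are given per the labels' protocols. The tools named are STAR, StringTie, FastQC and DESeq2, with the build mm39, per the submitters' processing notes. The sources used here give neither versions nor how, or on which strand, reads were counted. Reads of overlapping or antisense genes therefore cannot be told apart.

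The filterByExpr function, at a count of 10 and a summed count of 15, removed 1049 genes. CPM use TMM-scaled library sizes. All tested genes were fitted with edgeR's robust quasi-likelihood test (edgeR 4.0.16, R 4.3.3), Mll5+/- minus WT, with two-sided p-values adjusted by Benjamini-Hochberg over all of them and a threshold of 0.05. SEs came from the fold change and its F statistic. The code was tested on simulated data. No pairs of libraries were formed.

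The 9 genes and the 5 lists were chosen with earlier results of these data known. Named from each list are the 3 genes of smallest p and the 2 of highest mean CPM, with Nr1h2, Nr1h3, Apoe, Kmt2e, Tmem119, Cx3cr1 and Csf1r; 2 genes that this rule names are not reported here. P2ry12, Gpr34, Gja1, Plpp3, Slc1a3, Stab1, Mrc1, Acsl1, Acsl3, Acsl5, Plin3, Abhd5, Hilpda, Nceh1, Lipe, Etnk1, Capns2, Nxt2 and Tmem164 were named after their values were seen, as markers, relatives, partners or neighbours. Exon lengths are of GENCODE M21 (build GRCm38); promoters of RefSeq were matched by symbol for 8 of the 9 genes, all but Abcg1.

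Alternatives were DESeq2 1.42.0, limma-voom (limma 3.58.1) with sample weights, scaling by total counts or by DESeq2 size factors, other filters, a threshold of 0.1 and leaving out each library in turn. The value given for 3 counts covers counting error only, since the labels name no molecular identifier and amplified reads are not independent.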

Additional observations from a re-analysis of the deposited data

How the results depend on the processing

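DESeq2 called 29 genes over the whole table, against 0 in edgeR, and 0 of them were among the 120 pathway genes tested in edgeR. As each library was left out in turn, edgeR called from 0 to 2 genes over the whole table; it called 1 without Mll5+/- replicate 2, and 2 without Mll5+/- replicate 3, without WT replicate 1 and without WT replicate 2. The cause was not tested. With DESeq2 size factors, total counts without TMM, no filter, a filter at 1 CPM in at least 3 libraries, limma-voom or a threshold of 0.1, the count stayed at 0. In every list the count was 0 under all of these alternatives. Among the 9 genes, log2 fold changes of Abcg1, Soat1, Lpcat2, Pnpla2 and Selenoi kept their sign under 11 alternatives each, that of Acsl4 turned under 1, and those of Abca1, Abca7 and Plin2 turned under 3 each, limma-voom among them. Libraries of Pnpla2 and Selenoi do not overlap between labels, so leaving out a library could hardly turn their signs. Nothing is read from those signs. Total counts moved the median of all tested genes to 0.05, against 0.02 with TMM. The number of the 9 genes without overlap was 2 under both other scalings and 2 or 3 as libraries were left out. No paired analysis was possible because the replicate numbers only follow the order of the samples and the labels name no shared litter, batch or day. The biological coefficient of variation common to all tested genes was 80.4%. What size of difference 3 libraries per label could resolve was not tested, so the lack of calls does not show that levels were alike.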
